A study of Canis lupus familiaris with 18 samples.

Results

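The right atrium (RA) was compared directly with the right ventricle (RV) in dogs with early heart failure (HF), made by 2 weeks of rapid ventricular pacing. The comparison rests on 6 of the 18 arrays of the series, 3 labelled HF RA 2w and 3 labelled HF RV 2w. The 3 control RA and 3 control RV arrays were set beside them to show which chamber differences were also present without pacing. The tissue was a small piece of each chamber, frozen after euthanasia, from adult dogs that were mongrels or beagles. Which breed each array came from is not stated, and the protocol gives a range of 2 to 3 weeks for the early stage where the titles give 2. All groups were unselected tissue, so each array mixed myocytes with the other cells of the wall, and in such bulk samples fewer cells of a type and less RNA per cell cannot be told apart.

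Genes were represented by 1 probe set for each single gene symbol, the one with the highest mean. Control probe sets and the 40% with the lowest mean signal were left out, which kept 10988 genes. Every value below is a log2 signal and every difference is RA minus RV on that scale, so that a positive one means higher in RA. Differences are given with the standard error (SE) of the limma fit and an adjusted p, with n = 3 arrays per group, and a gene was called at an adjusted p under 0.05. The titles call the arrays of each group biological replicates but name no animal. A p-value here reflects only how far these samples vary, which may be in part technical.

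Atrial and ventricular muscle use different versions of the same machinery. The atrium makes the light chains MYL4 and MYL7 and secretes natriuretic peptides, while the working ventricle makes MYL2 and MYL3 and beats against a higher load, fuelled largely by fatty acids. Rapid ventricular pacing in dogs is a standard model of heart failure, and the atria of such dogs are known for interstitial fibrosis, in which fibroblasts lay down collagens, fibronectin and matricellular proteins.

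At 2 weeks, 985 of 10988 genes differed between the chambers (8.96%), 600 of them higher in RA (5.46%) and 385 lower (3.5%). With single arrays left out the counts were 410 to 632 higher and 218 to 467 lower. Without RA array 1 at 2 weeks more genes were lower than higher, 467 against 452, and without RV array 3 the counts were 410 higher and 218 lower. The median difference was 0.75 among those higher and -0.67 among those lower. Of the genes higher in RA, 184 differed by at least 1 log2 unit and 35 by at least 2, against 87 and 14 of those lower. The 3 RA arrays lay above the 3 RV arrays without overlap for 590 of the genes called higher and below them for 374 of those called lower, where 10.9% and 11.3% of all genes showed such a separation. The median difference over all genes was -0.03. In controls the same fit called 600 genes (5.46%), 363 higher (3.3%) and 237 lower (2.16%) in RA. Over all 25752 probe sets tested, 9.26% were called at 2 weeks and 5.75% in controls. The 3' minus 5' signal of control genes is used as a sign of RNA quality. That of EF1A followed the chambers, between 9.45 and 9.64 in RA and between 8.19 and 8.76 in RV at 2 weeks. In controls it was 9.28 to 9.58 in RA and 8.01 to 8.28 in RV. That of GAPDH overlapped, at 1.29 to 1.62 in RA and 1.09 to 1.42 in RV at 2 weeks. The gap was far wider for EF1A than for GAPDH in every group, and how far the EF1A value reflects RNA quality was not tested. The part of RNA quality in the gene differences was not tested.

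The chamber labels held in all 6 arrays. MYL4, the atrial essential light chain, had 14.05, 13.90 and 13.88 in RA, against 10.88, 7.98 and 10.36 in RV. The atrial regulatory light chain MYL7 had 13.88, 13.84 and 13.88 in RA, against 12.06, 12.27 and 11.77 in RV. Both genes were higher in every RA array, MYL4 by 4.20 (SE 0.67, adjusted p = 0.00131) and MYL7 by 1.83 (SE 0.14, adjusted p = 6.6e-06). MYL4 varied widely among the RV arrays and MYL7 did not. DKK3, a secreted glycoprotein of the Dickkopf family, had 12.21, 12.35 and 12.29 in RA and 7.60, 6.38 and 7.54 in RV. Its difference of 5.11 (SE 0.39, adjusted p = 6.6e-06), 34.5-fold, was the largest of the 600 genes called higher in RA.

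PAM, which amidates secreted peptides, had 12.64, 12.68 and 12.75 in RA and 10.59, 10.61 and 10.86 in RV. The gap junction gene GJA5 had 8.46, 8.63 and 8.74 in RA, against 6.65, 6.68 and 7.03 in RV. The RA arrays stood apart tightly in both, with differences of 2.00 for PAM (SE 0.09, adjusted p = 7.43e-08) and 1.82 for GJA5 (SE 0.16, adjusted p = 1.78e-05). The nuclear receptor NR2F2, a factor of atrial identity in mice, was higher by 0.97 (SE 0.16, adjusted p = 0.00184). Of 12 atrial myocyte markers tested, 6 were higher in RA and 0 lower, with a median of 0.58. The other 6 did not pass and lay near 0: NR2F1 0.20, BMP10 -0.14, MYBPHL -0.01, KCNA5 0.19, CORIN -0.25 and HAMP 0.04. In controls 7 were higher and 0 lower.

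The ventricular side was led by both ventricular light chains. MYL3, the essential chain, had 9.24, 10.86 and 9.04 in RA, against 13.85, 14.00 and 13.84 in RV. MYL2, the regulatory chain, had 9.73, 12.06 and 10.53 in RA and 14.42, 14.19 and 14.41 in RV. The RV arrays were high and close together, and RA array 2 was the highest of RA in both. The differences were -4.18 for MYL3 (SE 0.33, adjusted p = 1.08e-05) and -3.57 for MYL2 (SE 0.69, adjusted p = 0.00508). IRX5, a homeobox factor of the ventricular wall, had 4.72, 5.56 and 5.59 in RA and 8.19, 8.39 and 8.61 in RV. Its RA mean of 5.29 lay under 5.31, the limit of the signal filter, so its difference of -3.11 (SE 0.22, adjusted p = 3.78e-06) was measured against a level near background, and 1 of its 2 probe sets passed.

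FHL2, a LIM protein of the sarcomere and nucleus, had 9.50, 10.74 and 10.05 in RA, against 12.14, 13.12 and 12.85 in RV. FHL2 was lower by 2.61 (adjusted p = 0.000246), and IRX3, another homeobox factor, was lower by 1.01 (adjusted p = 0.000138). MYH7, the slow beta-myosin heavy chain, had 13.40, 13.39 and 13.08 in RA and 14.14, 14.12 and 14.09 in RV. Its difference was -0.83 (SE 0.08, adjusted p = 4.23e-05), and 3 of its 5 probe sets were lower while 2 did not pass. XIRP2, an actin-binding protein of the intercalated disc, had 5.20, 5.20 and 5.30 in RA, which is near background, against 8.29, 5.89 and 7.37 in RV. Its difference was -1.95 (SE 0.40, adjusted p = 0.00695), with the RV arrays spread over more than 2 log2 units. Of 14 ventricular markers tested, 9 were lower in RA and 0 higher, with a median of -0.75, beside 7 lower and 0 higher in controls. IRX4 (-0.10), HAND1 (-0.19), LBH (-0.04), PRDM16 (0.12) and KCNIP2 (-0.54) did not pass. The alpha-myosin gene MYH6 was not measured, since no probe set carried its symbol alone.

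**Figure D1:**
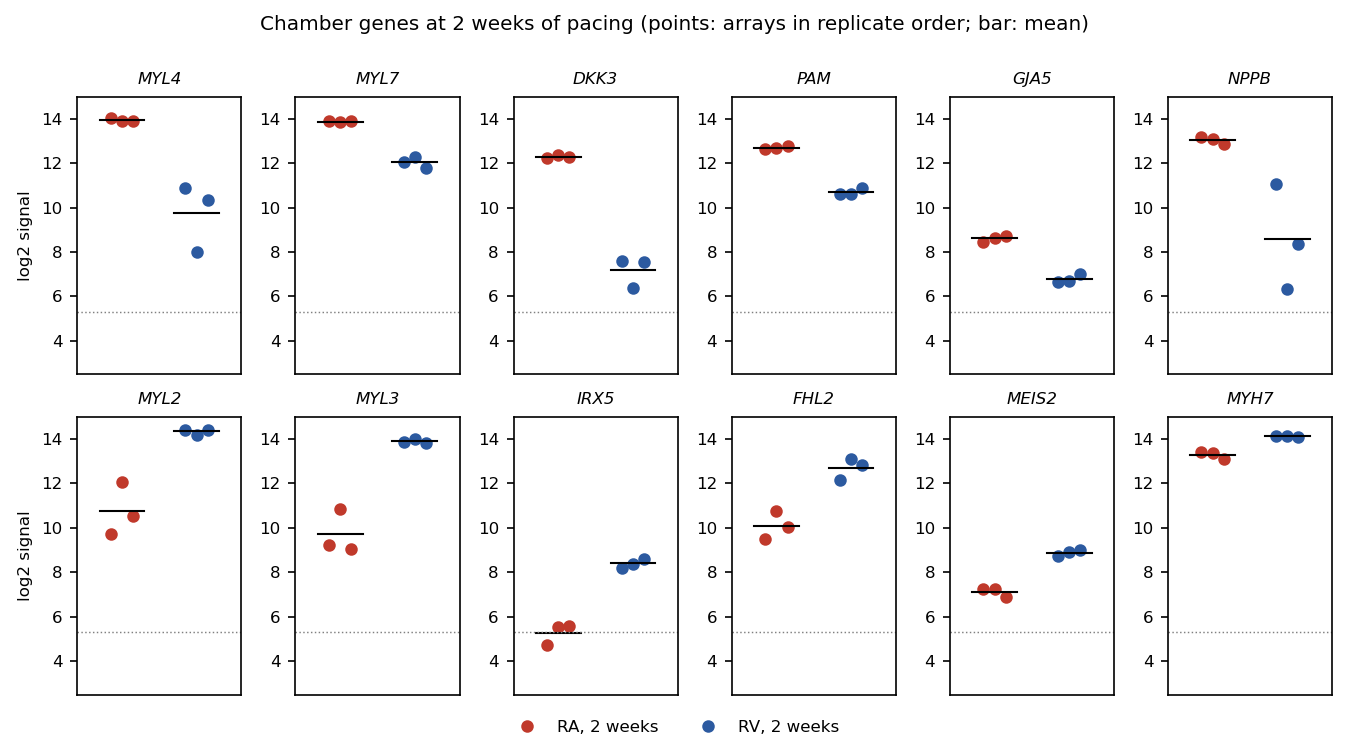
Log2 signal of 12 chamber genes in the 3 RA arrays (left, red) and the 3 RV arrays (right, blue) at 2 weeks of pacing, with group means as bars and the limit of the signal filter (5.31) as a dotted line. MYL7, PAM and GJA5 are tight in both chambers, MYL4 and NPPB are spread in RV, and MYL2 and MYL3 are spread in RA with array 2 on top.

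NPPB, the gene of B-type natriuretic peptide, a hormone that myocytes release under stretch, had 13.17, 13.08 and 12.87 in RA, against 11.04, 6.34 and 8.34 in RV. It was uniformly high in RA and different in each RV array, with a difference of 4.47 (SE 0.98, adjusted p = 0.0106). In controls it had 8.59, 11.21 and 12.38 in RA and 6.39, 6.30 and 6.38 in RV, so that the control chamber difference was 4.37 and the change between the comparisons 0.10 (adjusted p = 0.997). With all 18 arrays in the fit, the 2-week call was lost at adjusted p = 0.0526. It was kept with 17 arrays, all but RA array 3 at 5 weeks. NPR3, the receptor that clears natriuretic peptides, was higher in RA by 1.11 (SE 0.19, adjusted p = 0.00212). The signalling receptors NPR1 (-0.03) and NPR2 (0.13) and the C-type peptide gene NPPC (0.11) did not pass.

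UCHL1, a neuronal-type ubiquitin hydrolase, had 10.00, 8.95 and 9.22 in RA and 6.82, 6.17 and 7.64 in RV, with a difference of 2.51 (SE 0.36, adjusted p = 0.000645). NRAP, which anchors actin at the ends of myofibrils, had 10.21, 9.88 and 10.07 in RA, against 11.92, 10.89 and 11.90 in RV. It was lower in RA by 1.52 (SE 0.22, adjusted p = 0.000687), and its control difference was only -0.17. In all, 3 of 15 natriuretic peptide and stress genes were higher and 1 lower, with a median of 0.11. Skeletal actin, ACTA1, had 14.14, 14.10 and 14.14 in RA and 14.35, 14.13 and 14.26 in RV, with overlap. Its difference did not pass at 2 weeks (-0.12, adjusted p = 0.746), whereas RA controls lay below RV controls by 1.07 (adjusted p = 0.00107).

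Of 19 cardiac transcription factor genes, 1 was higher and 1 lower, a share near the 8.96% called over all genes. HIF1A, the hypoxia-inducible factor, was higher in RA (0.64, adjusted p = 0.0133) and MEIS2 was lower. MEIS2, a homeobox cofactor, had 7.25, 7.23 and 6.88 in RA and 8.74, 8.91 and 8.99 in RV, a difference of -1.76 (SE 0.18, adjusted p = 5.73e-05). The core cardiac factors NKX2-5 (-0.07), TBX20 (-0.08), GATA6 (-0.07) and MEF2C (-0.10) did not pass.

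Of 17 potassium channel genes, 1 was higher and 1 lower, which is also near the 8.96% over all genes. KCNJ8, the pore of an ATP-sensitive channel, had 7.82, 8.13 and 8.21 in RA, against 8.75, 9.67 and 9.49 in RV, and was lower by 1.25 (SE 0.23, adjusted p = 0.00326). ABCC8, a sulfonylurea receptor subunit of such channels, had 5.88, 5.94 and 6.28 in RA and 5.37, 5.49 and 5.37 in RV, higher by 0.62 (adjusted p = 0.00432). The partner genes KCNJ11 (-0.12) and ABCC9 (-0.16) did not pass. Neither did KCND3 (-0.29, adjusted p = 0.217), KCNIP2 (-0.54, adjusted p = 0.414), KCNH2 (-0.11, adjusted p = 0.655), KCNQ1 (-0.12, adjusted p = 0.587) and KCNA5 (0.19, adjusted p = 0.402). Each has an SE between 0.11 and 0.33, so smaller chamber differences in them could not be seen with 3 arrays. KCNJ3 and KCNJ5, the subunits of the acetylcholine-activated channel, and the pacemaker channel HCN4 fell below the signal filter.

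Of 9 sodium, calcium and pacemaker channel genes, CACNA2D3, an auxiliary calcium channel subunit, was higher in RA, a share near the 8.96% over all genes. It had 7.85, 8.0 and 7.30 in RA and 5.75, 5.91 and 5.88 in RV, a difference of 1.87 (SE 0.19, adjusted p = 5.98e-05). The pore genes CACNA1C (-0.08) and CACNA1G (-0.12) did not pass and had no stable sign. Among 19 genes of adrenergic, muscarinic and renin-angiotensin signalling, 2 were higher and 2 lower. GNAO1, a G protein alpha subunit, had 9.01, 8.70 and 8.41 in RA, against 6.81, 6.64 and 6.78 in RV, higher by 1.96 (SE 0.17, adjusted p = 1.56e-05). The inhibitory subunit GNAI2 was higher by 0.80 (adjusted p = 0.00414), while the alpha-adrenergic receptor ADRA1B (-0.61, adjusted p = 0.00176) and the cyclic nucleotide phosphodiesterase PDE3A (-0.76, adjusted p = 0.00891) were lower.

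Calcium cycling genes split. Of 24 tested, 2 were higher and 6 lower, with a median of -0.12. FKBP1B, which binds the ryanodine receptor and stabilises its closed state, had 8.70, 8.04 and 8.09 in RA, against 7.17, 7.29 and 6.67 in RV. It was higher in every RA array, by 1.23 (SE 0.23, adjusted p = 0.00411), beside -0.11 in controls. Its RA mean was 8.28 at 2 weeks and 8.12 in controls, while its RV mean was 7.04 at 2 weeks and 8.23 in controls. RYR2, the release channel itself, had 11.71, 11.45 and 11.23 in RA and 11.90, 12.21 and 12.02 in RV, lower by 0.58 (SE 0.12, adjusted p = 0.00657). With the 6 arrays alone RYR2 did not pass (adjusted p = 0.0586), and with all 18 arrays neither RYR2 (0.199) nor FKBP1B (0.116) did.

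PPP1R1A, an inhibitor of protein phosphatase 1, had 8.50, 8.40 and 8.59 in RA and 9.59, 9.95 and 9.79 in RV, lower by 1.28 (SE 0.18, adjusted p = 0.000542). TRDN, which tethers the release channel to calsequestrin, was lower by 0.70 (adjusted p = 0.0077), and the calcineurin catalytic subunit PPP3CA was higher by 0.75. The calcium pump ATP2A2 and its regulator PLN did not pass. ATP2A2 had 13.24, 13.24 and 13.08 in RA, against 12.87, 13.33 and 13.20 in RV (difference 0.05, SE 0.10). The count of 6 lower was 3 without RA array 2 or without RV array 3, and 2 with all 18 arrays or with the 6 arrays alone.

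Genes of the sarcomere and Z-disc were lower in RA in 11 of 30 cases and higher in 1, with a median of -0.41 beside -0.03 over all genes, where 1 was lower and 1 higher in controls. MYOM2, a myomesin that crosslinks thick filaments at the M-band, had 8.95, 8.99 and 9.19 in RA, against 9.97, 10.91 and 11.30 in RV. It was lower by 1.68 (SE 0.24, adjusted p = 0.0007), and 7 of its 9 probe sets were lower. Its partner MYOM1 had 12.25, 11.80 and 11.57 in RA and 13.08, 12.68 and 12.77 in RV, lower by 0.97 (SE 0.15, adjusted p = 0.0011). In control arrays the chambers lay close for both, at -0.18 for MYOM2 and 0.12 for MYOM1.

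The titin cap gene TCAP was lower by 0.87 (SE 0.16, adjusted p = 0.00449) and the Z-disc LIM protein gene PDLIM5 by 0.75 (SE 0.09, adjusted p = 0.00018). Cardiac troponin I, TNNI3, had 13.23, 13.17 and 13.23 in RA and 13.76, 13.66 and 13.56 in RV, lower by 0.45 (SE 0.07, adjusted p = 0.000729). ACTC1, cardiac actin, was the member that was higher, with 13.91, 13.89 and 13.91 in RA, against 13.65, 13.59 and 13.58 in RV (0.30, SE 0.06, adjusted p = 0.00398). Titin (TTN, -0.68), myosin-binding protein C (MYBPC3, -0.42) and desmin (DES, -0.61) did not pass. The count of 11 lower was 6 with the 6 arrays alone and 7 without RA array 3 or RV array 3, and it was 17 without RV array 2. MYOT, a Z-disc protein outside that list, had 5.61, 6.78 and 5.80 in RA and 8.26, 7.14 and 9.06 in RV (-2.09, SE 0.45, adjusted p = 0.01).

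Cell junction genes followed with 5 of 23 lower and 1 higher, median -0.25. N-cadherin, CDH2, had 10.44, 10.44 and 10.12 in RA, against 10.86, 11.23 and 11.32 in RV, lower by 0.80 (SE 0.15, adjusted p = 0.00326). The desmosomal plakophilin PKP2 was lower by 0.98 (SE 0.16, adjusted p = 0.00178) and the scaffold SORBS2 by 1.23 (SE 0.24, adjusted p = 0.00527). Lamin A/C, LMNA, was higher by 0.50. GJA1, the main ventricular connexin, had 7.99, 8.0 and 8.09 in RA and 8.05, 7.92 and 8.05 in RV, with a difference of 0.02 that did not pass and changed sign under some settings. The count of 5 lower was 3 in several of the alternatives, among them all 18 arrays and the 6 arrays alone.

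Fatty acid genes were lower in RA: 13 of 35 were lower and 0 higher, with a median of -0.40, and 10 were lower and 0 higher in controls. LPL, the lipase that frees fatty acids from circulating lipoproteins, had 10.01, 9.98 and 10.08 in RA, against 10.92, 11.26 and 11.16 in RV. It was lower by 1.09 (SE 0.17, adjusted p = 0.00134). ACADVL, the mitochondrial dehydrogenase for very long chains, had 11.40, 11.49 and 11.30 in RA and 12.07, 12.54 and 12.07 in RV, lower by 0.83 (SE 0.15, adjusted p = 0.00306). The RA arrays of LPL varied by only 0.10, and those of ACADVL by less than the gap to RV.

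Malonyl-CoA decarboxylase, MLYCD, which relieves the block on fatty acid entry into mitochondria, was lower by 0.93 (adjusted p = 0.00684), and the electron transfer flavoprotein subunit ETFB by 0.88 (adjusted p = 0.00501). DECR1, which handles unsaturated chains, was lower by 0.64 (adjusted p = 0.00178), a call that was lost with the late arrays in the fit (0.222 with 18 arrays, 0.166 with 17). The fatty acid transporter CD36 was lower by 0.78 (adjusted p = 0.0141) but did not pass without RA array 3 (0.0607), RV array 2 (0.0545) or RV array 3 (0.0628). UCP3, a mitochondrial carrier, had 5.16, 5.43 and 5.37 in RA and 6.03, 7.92 and 8.07 in RV (-2.02, SE 0.53, adjusted p = 0.0276), and its call was lost without any 1 of 5 of the 6 arrays, at 0.0576 to 0.127. PDK4, which restrains glucose oxidation, was at -1.75 and did not pass. The list's count was 7 with all 18 arrays.

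Of 59 genes of oxidative phosphorylation, 5 were lower and 1 higher, a share near the 8.96% called over all genes. Their median was -0.17, and 53 had a difference of 0 or below. In controls 3 were lower and 0 higher, with a median of -0.12. COX6A2, the muscle form of a cytochrome oxidase subunit, had 11.88, 11.66 and 11.81 in RA, against 12.42, 12.62 and 12.57 in RV, lower by 0.75 (SE 0.09, adjusted p = 0.000246). COX8A, another subunit, was higher by 0.43. The count of 5 lower was 1 with the 6 arrays alone, with no signal filter or without RV array 3. Of 35 genes of glycolysis and the citric acid cycle, 6 were lower and 1 higher. The phosphoglycerate mutases went opposite ways: the muscle gene PGAM2 had 11.02, 10.84 and 10.96 in RA and 11.79, 11.88 and 11.51 in RV (-0.79, adjusted p = 0.00289), and the widely expressed PGAM1 had 11.87, 11.76 and 11.77 in RA and 11.30, 11.06 and 11.09 in RV (0.65, adjusted p = 0.00116). SUCLA2, a subunit of succinyl-CoA synthetase, was lower by 0.82 (adjusted p = 0.00141).

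**Figure D2:**
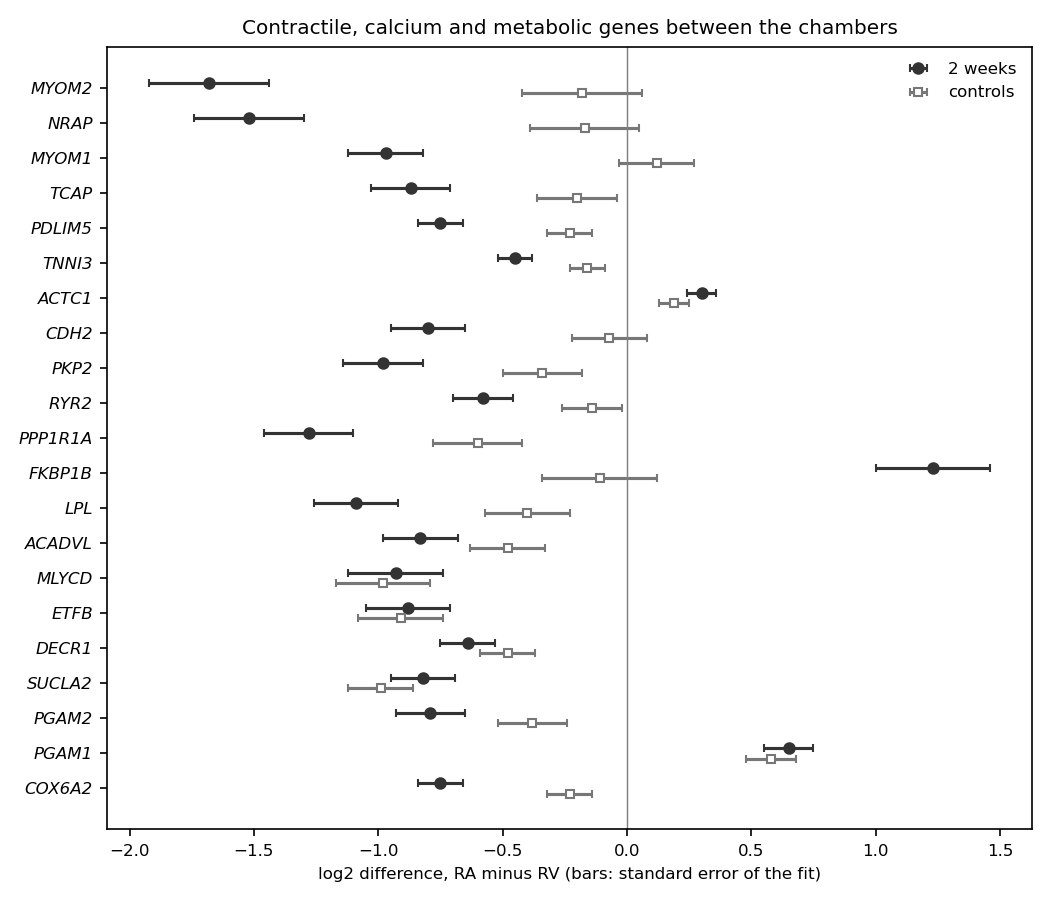
Log2 difference, RA minus RV, of 21 contractile, calcium and metabolic genes at 2 weeks (filled circles) and in controls (open squares), with standard errors of the fit as bars. MYOM2, NRAP, MYOM1 and FKBP1B lie near 0 in controls and away from it at 2 weeks, while MLYCD, ETFB, SUCLA2 and PGAM1 lie at nearly the same place in both.

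Genes of the extracellular matrix differed widely between the chambers. Of 42 tested, 31 were higher in RA and 0 lower, with a median of 1.24, beside 16 higher and 0 lower in controls (median 0.52). Fibronectin, FN1, which links collagen to cells, had 12.50, 11.49 and 12.55 in RA, against 9.60, 9.03 and 8.82 in RV. COL1A1, the main fibrillar collagen chain, had 12.51, 10.61 and 12.22 in RA and 9.04, 7.93 and 8.13 in RV. The differences were 3.03 for FN1 (SE 0.28, adjusted p = 2.55e-05) and 3.41 for COL1A1 (SE 0.45, adjusted p = 0.00034), 8.17-fold and 10.7-fold. RA array 2 was the lowest of RA in both genes and still above every RV array.

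The companion chains COL1A2 (2.25, SE 0.30) and COL3A1 (2.39, SE 0.27) were higher as well. Fibrillin, FBN1, which forms microfibrils, had 11.75, 11.02 and 11.39 in RA, against 9.34, 8.72 and 9.07 in RV, higher by 2.34 (SE 0.20, adjusted p = 1.38e-05). The microfibril protein gene MFAP5 (2.04, SE 0.18), the basement membrane collagens COL4A1 (1.84) and COL4A2 (1.53) and the collagen-binding proteoglycan LUM (1.22) were higher too. CILP, a matrix protein of cartilage and fibrotic heart, had 8.83, 7.63 and 9.83 in RA and 6.11, 6.15 and 5.68 in RV (2.78, SE 0.38, adjusted p = 0.000433).

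Periostin, POSTN, a matricellular protein of activated fibroblasts, had 9.52, 7.78 and 9.14 in RA, against 5.29, 4.18 and 4.21 in RV. Thrombospondin 4, THBS4, had 10.79, 9.0 and 10.61 in RA and 6.63, 5.82 and 6.08 in RV. POSTN was higher by 4.25 (SE 0.37, adjusted p = 1.78e-05), with an RV mean of 4.56 near background, and THBS4 by 3.96 (SE 0.36, adjusted p = 2.39e-05). Epiphycan, EPYC, a small proteoglycan outside that list, had 9.97, 8.45 and 9.32 in RA and 5.11, 4.94 and 4.52 in RV, which is near background (4.39, SE 0.36, adjusted p = 1.32e-05).

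The matrix genes that did not pass included elastin (ELN, -0.04), the collagen VI chains COL6A1 (0.00) and COL6A3 (0.11), lysyl oxidase (LOX, 0.17) and decorin (DCN, 0.24). The summed signal of the 42 genes was 16.05, 15.19 and 15.85 in RA and 14.22, 14.16 and 13.98 in RV. Leaving out single arrays gave 25 to 31 members higher, and all 18 arrays gave 22.

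Of the 19 fibroblast markers, 9 were higher and 0 lower (median 0.26). Dermatopontin, DPT, which binds decorin and collagen, had 12.32, 11.64 and 11.76 in RA, against 10.32, 10.47 and 10.24 in RV, higher by 1.56 (SE 0.15, adjusted p = 3.57e-05). S100A4, a calcium-binding protein of motile fibroblasts and leukocytes, was higher by 1.83 (SE 0.23, adjusted p = 0.000305). FAP, a surface protease of activated fibroblasts, had 8.18, 7.74 and 7.99 in RA and 7.13, 6.90 and 6.83 in RV (1.02, SE 0.13, adjusted p = 0.000282). The lineage receptors PDGFRA (0.26) and PDGFRB (0.07) did not pass. The summed signal of the 19 markers was 14.49 to 14.80 in RA and 13.67 to 13.88 in RV, and its part in the matrix differences was not tested.

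Of 23 genes of TGF-beta signalling and matrix proteolysis, 7 were higher and 0 lower, median 0.23. TIMP1, an inhibitor of matrix metalloproteinases, had 8.51, 7.42 and 8.43 in RA and 7.19, 6.75 and 6.51 in RV, higher by 1.30 (SE 0.24, adjusted p = 0.00411). TIMP2 was higher by 0.50 (adjusted p = 0.00439) and the receptor TGFBR2 by 0.77. The ligands TGFB1 (0.17) and TGFB3 (-0.27) did not pass. The count was 3 with all 18 arrays and with the 6 arrays alone.

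**Figure D3:**
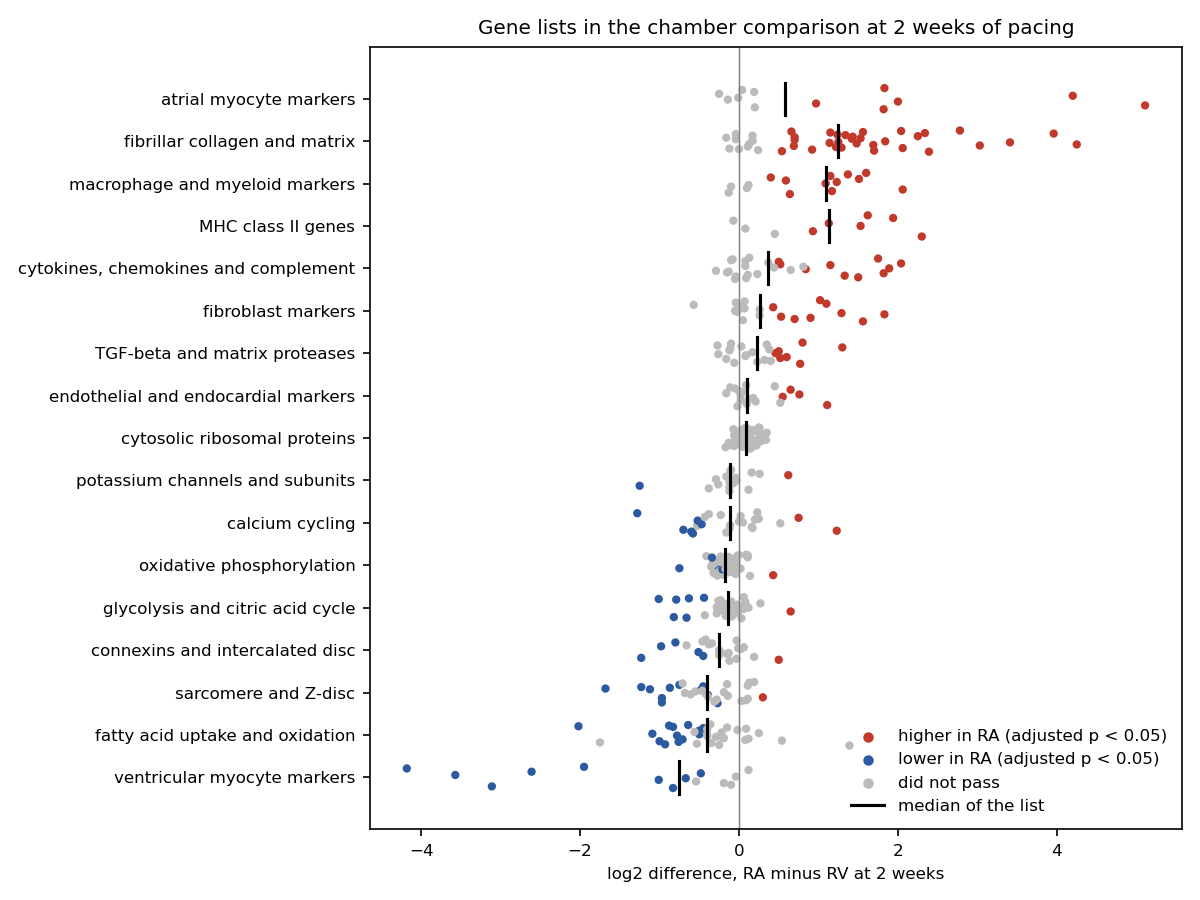
Log2 difference, RA minus RV at 2 weeks, of the tested members of 17 gene lists, with called genes in red (higher in RA) or blue (lower in RA) and list medians as bars. Matrix, macrophage and MHC class II members lie mostly to the right of 0, sarcomere, fatty acid and ventricular marker genes mostly to the left, and the 49 ribosomal protein genes close to 0 with none called.

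Macrophage and myeloid genes were higher in RA: 11 of 15 tested passed and 0 were lower, with a median of 1.09, while 0 passed in controls in either direction (median 0.07). Cathepsin S, CTSS, a lysosomal protease that prepares class II molecules, had 11.78, 10.54 and 11.22 in RA, against 9.54, 9.18 and 8.64 in RV. It was higher by 2.06 (SE 0.27, adjusted p = 0.000307). CYBB, the catalytic subunit of the phagocyte oxidase, had 8.93, 7.78 and 7.73 in RA and 6.89, 6.66 and 6.09 in RV, higher by 1.60 (SE 0.30, adjusted p = 0.00406). RA array 1 was the highest in both genes and no RA array fell among those of RV.

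Lysozyme, LYZ, was higher by 1.23 (SE 0.24, adjusted p = 0.00498) and the adaptor TYROBP by 1.09 (SE 0.23, adjusted p = 0.0079). LY96, a partner of the endotoxin receptor, was higher by 1.51 (adjusted p = 0.00211) over an RV mean of 4.83, near background. The scavenger receptor genes CD163 (1.37, adjusted p = 0.0364) and MRC1 (0.64, adjusted p = 0.0438) passed with all arrays and not in every set with 1 array left out. CSF1R (0.12), ITGB2 (0.10), S100A8 (-0.10) and LAPTM5 (-0.13) did not pass. The summed signal was 13.07, 12.17 and 12.68 in RA and 11.78, 11.42 and 11.23 in RV. The count of 11 was 6 without RV array 3 and 7 without RA array 1, 5 with the 6 arrays alone and 4 with all 18 arrays.

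MHC class II genes, which present peptides to T cells, were higher in RA in 6 of 9 cases and lower in 0, with a median of 1.13, beside 2 lower and 0 higher in controls. DLA-DQA1 had 10.06, 8.51 and 9.83 in RA, against 7.58, 7.24 and 6.68 in RV. DLA-DRA had 11.55, 10.29 and 11.10 in RA and 9.53, 9.19 and 8.40 in RV. RA array 2 was again the lowest of RA, above all RV arrays in both. The differences were 2.30 for DLA-DQA1 (SE 0.34, adjusted p = 0.000801) and 1.94 for DLA-DRA (SE 0.36, adjusted p = 0.00396). For DLA-DQA1 1 of 2 probe sets was higher and the other did not pass, while both of DLA-DRA were higher.

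The beta chains HLA-DRB1, so named in the annotation (1.62, adjusted p = 0.00373), and DLA-DQB1 (1.53, adjusted p = 0.00531), the invariant chain CD74 (1.13, adjusted p = 0.0114) and the peptide loading gene DLA-DMA (0.93, adjusted p = 0.0118) were the other members higher. The class II transactivator CIITA (-0.07) did not pass. These chains are closely related in sequence, and how far their probe sets share signal was not tested. With all 18 arrays in the fit 0 of the 9 were called, and without RV array 3 the count was 4.

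Of 27 cytokine, chemokine and complement genes, 10 were higher and 0 lower (median 0.37), beside 4 higher and 0 lower in controls (median 0.04). CCL2, which recruits monocytes, had 8.81, 8.23 and 9.53 in RA, against 7.24, 6.76 and 6.89 in RV, higher by 1.89 (SE 0.24, adjusted p = 0.000247). IL33, an alarmin cytokine, had 7.46, 7.33 and 7.46 in RA and 5.28, 5.62 and 5.22 in RV, higher by 2.04 (SE 0.28, adjusted p = 0.000523). IL33 was also higher in RA controls, by 1.60 (adjusted p = 0.00412), and the change of 0.44 did not pass (adjusted p = 0.935). CXCL16, a chemokine for T cells, was higher by 0.84 (adjusted p = 0.000759). Early complement proteases and a regulator were higher as well, with C1S at 1.82 (SE 0.27), C1R at 1.33 (SE 0.21) and CFI at 1.75 (SE 0.18, adjusted p = 5.96e-05), and their inhibitor SERPING1 was at 1.5 (SE 0.23). CFI was also higher in RA controls, by 0.77 (adjusted p = 0.0234).

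TNF (-0.15), IL10 (0.08), C3 (0.13) and CXCL10 (-0.04) did not pass. With all 18 arrays, CYBB, LY96, IL33, CFI, DLA-DRA, DLA-DQA1, HLA-DRB1, DLA-DQB1 and DLA-DMA missed the threshold, at adjusted p between 0.0526 and 0.16. With 17 arrays, all but RA array 3 at 5 weeks, which carried RV markers, each of these genes kept its call. Of 12 markers of T, B and mast cells, HPGDS, a prostaglandin synthase of mast cells, was higher (1.29, adjusted p = 0.0404), a share near the 8.96% over all genes. The rest did not pass, with CD3E at 0.11 and KIT at 0.23. The HPGDS call was lost in 8 of the 12 sets with 1 array left out. Of 20 interferon response genes, 4 were higher and 0 lower, and 2 to 6 were higher with single arrays left out. They included SAMD9L (0.97, adjusted p = 0.00528) and the immunoproteasome gene PSMB9 (0.59, adjusted p = 0.0101).

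Of 15 smooth muscle and pericyte markers, 5 were higher and KCNJ8 was lower. MYLK, the myosin light chain kinase of smooth muscle, had 8.21, 9.39 and 8.71 in RA, against 7.22, 7.38 and 7.17 in RV, higher by 1.51 (SE 0.28, adjusted p = 0.00338). TAGLN, an actin-binding protein of smooth muscle, was higher by 1.30 (SE 0.22) and RGS5, a pericyte regulator of G proteins, by 0.81 (SE 0.14), while MYH11 (-0.26) and ACTA2 (0.72) did not pass. Of 19 endothelial and endocardial markers, 4 were higher and 0 lower, and the count was 1 to 4 with single arrays left out. PECAM1 (0.76), EMCN (0.55) and AQP1 (0.65) each lost their call in several of these sets, and CDH5 (-0.02) and KDR (0.18) did not pass.

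Of 15 cell cycle genes, 6 were higher and 1 lower. TOP2A, a topoisomerase of dividing cells, had 6.39, 5.83 and 7.01 in RA and 5.23, 5.12 and 5.12 in RV, near background, higher by 1.25 (SE 0.21, adjusted p = 0.00211). MCM6, a replication helicase subunit, was higher by 1.03 (SE 0.16, adjusted p = 0.00104), and NUSAP1, a spindle protein, was lower by 0.69. The count of 6 was 3 without RA array 3 and with the 6 arrays alone.

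Of 20 adipocyte markers, 0 were higher and LPL was lower. Their summed signal was 12.88, 13.27 and 13.03 in RA and 12.56, 13.60 and 12.65 in RV, with RV array 2 on top. The mesothelial (8 tested), blood cell (6 tested) and ribosomal protein lists (49 tested, median 0.09) had 0 calls in either direction, while 11 ribosomal genes were higher in RA controls. At an unadjusted p under 0.05 the fit held 5435 probe sets. Of 26 heat shock and ER stress genes PDIA3 was higher (0.69), a share below the 8.96% called over all genes. Of 14 immediate early genes IER2 (0.98) and EGR1 (0.64) were higher.

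Neural and neuroendocrine genes were mixed, with 4 of 18 higher and 1 lower. STMN2, a neuronal microtubule regulator, had 7.47, 6.70 and 7.33 in RA, against 4.94, 4.83 and 4.80 in RV, near background, higher by 2.31 (SE 0.22, adjusted p = 3.81e-05). SCG5, a chaperone of the secretory granule, was higher by 1.53 (SE 0.17, adjusted p = 8.95e-05). OLFM1, a secreted olfactomedin, had 7.01, 6.97 and 7.42 in RA and 8.70, 8.74 and 8.74 in RV, lower by 1.59 (SE 0.15, adjusted p = 2.55e-05). The neural marker TH (-0.16) and the Schwann cell markers SOX10 (-0.03) and PMP22 (-0.08) did not pass. Of 10 conduction system markers, GJA5 and SMOC2 were higher and IRX3 lower.

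Further genes among those of largest difference had roles outside these groups. Higher in RA were the serine protease PRSS23 (3.50, SE 0.29), CRYM, which binds thyroid hormone (2.82, SE 0.29), the slow skeletal myosin-binding protein gene MYBPC1 (2.78, SE 0.47) and the phosphodiesterase SMPDL3A (2.68, SE 0.52). HSD17B13, a lipid droplet enzyme, had 9.07, 5.72 and 8.77 in RA and 4.65, 4.24 and 4.88 in RV, near background (3.26, SE 0.72, adjusted p = 0.0107), and did not pass without RA array 3 (0.0517). The probe set that stood for GNA12, a G protein subunit, had 9.91, 9.46 and 9.09 in RA, against 6.70, 3.17 and 3.85 in RV, near background (4.91, SE 1.00, adjusted p = 0.00701), but the other GNA12 probe set did not pass.

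Lower in RA were PLPPR5, a lipid phosphatase-related membrane protein (-3.18, over an RA mean of 4.30 near background), YLPM1 (-3.06), OR51F23, named as an olfactory receptor (-2.61), and FHIT (-2.51, over an RA mean near background, with 1 of 3 probe sets lower). CTH, which makes cysteine and hydrogen sulfide, had 6.34, 5.85 and 5.18 in RA and 8.22, 7.51 and 8.99 in RV (-2.45, SE 0.35, adjusted p = 0.000621). PLA2G7, a phospholipase of platelet-activating factor, was at -2.39, RIPOR2 at -2.15, ECRG4 at -2.13 and PHLDB2 at -1.99. PHLDB2 did not pass without RA array 2 (0.0527), RA array 3 (0.0692) or RV array 3 (0.0865).

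Chamber differences at 2 weeks were then set against those in controls, which share no array with them. Both come from the same fit, though, and share its estimate of spread for each gene. The overlap of their calls is therefore not one of independent results. Of the 600 genes higher in RA at 2 weeks, 212 (35.3%) were also called higher in controls, which was 58.4% of the control calls. Of the 385 lower, 127 (33%) were also lower in controls, 53.6% of the control calls. A gene called at 2 weeks and not in controls is not thereby shown to differ, so the change in the chamber difference was tested itself. It was called for 5 genes (0.0455%), all with a positive change. With RA and RV arrays paired by number the count was 94 (0.855%), 53 with a positive (0.482%) and 41 with a negative change (0.373%). Over all probe sets 0.0388% were called without the pairs. These 94 come from pairs entered as a fixed block. With the pairs as a random block 13 genes were called, each also among the 94: the 5 called without pairs, CCL2, HLA-DRB1, ANKHD1, USP28, RAB9B, CLIC2, LRRC39 and PGM2.

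POSTN and THBS4 were low in 3 of the 4 groups. In RA controls POSTN had 3.97, 4.15 and 4.48, and in RV controls 4.13, 3.93 and 4.01. THBS4 had 5.76, 5.55 and 5.46 in RA controls and 5.93, 5.59 and 5.46 in RV controls. Only the RA arrays at 2 weeks stood above the rest, by a wide margin in all 3. The chamber difference changed by 4.08 for POSTN (adjusted p = 0.0207) and by 4.03 for THBS4 (adjusted p = 0.0207). KLHL5, a kelch-like protein, had 8.46, 8.04 and 8.30 in RA and 6.51, 6.55 and 6.24 in RV at 2 weeks, with 7.17, 7.17 and 7.23 in RA controls and 6.85, 6.61 and 6.80 in RV controls. Its chamber difference was 1.83 at 2 weeks and 0.44 in controls, a change of 1.40 (adjusted p = 0.0207).

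DLA-DMA was called in opposite directions. At 2 weeks it had 7.67, 6.78 and 7.53 in RA and 6.50, 6.39 and 6.30 in RV, but in controls 6.20, 5.93 and 5.74 in RA and 6.85, 7.29 and 6.75 in RV. The change was 1.94 (adjusted p = 0.0416). At 2 weeks 1 of its 2 probe sets was higher and the other did not pass. NEFL, the light neurofilament chain, had 6.01, 4.77 and 5.35 in RA and 4.93, 5.49 and 4.10 in RV at 2 weeks, with 5.69, 4.57 and 5.29 in RA controls. Only RV controls were high, at 8.30, 9.21 and 8.60, and the change was 4.06 (adjusted p = 0.0224). The means of RV at 2 weeks and of RA controls lay under the filter limit, near background. These 5 calls were lost with all 18 arrays in the fit, with 17 and without any 1 of 5 arrays, RA control 1, RA control 2, RV control 1, RV control 3 or RV array 3 at 2 weeks, and they held with the pairs as a block. NEFL was also lost without RA array 3 at 2 weeks, and DLA-DMA was kept in 3 of the 12 sets with 1 array left out.

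**Figure D4:**
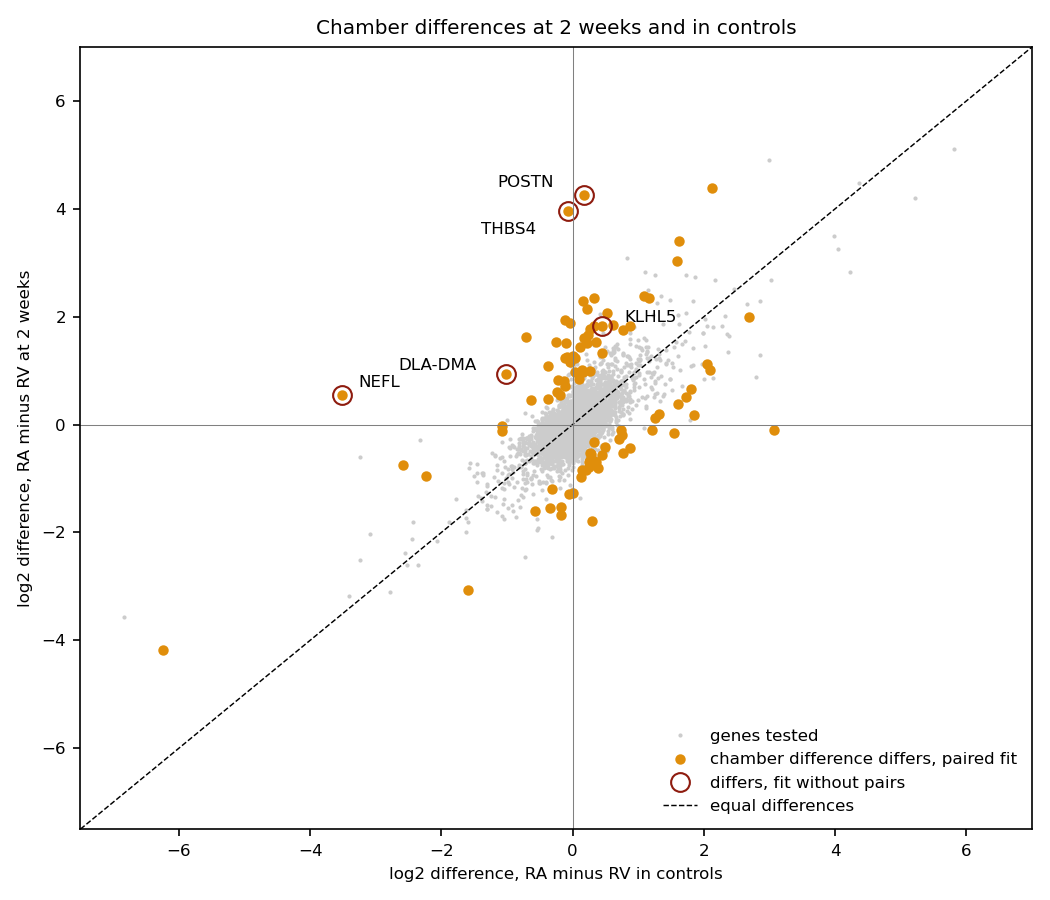
Log2 difference, RA minus RV, of each tested gene in controls (horizontal) and at 2 weeks (vertical), with the 94 genes whose difference changed in the paired fit in orange and the 5 called without pairs ringed. POSTN and THBS4 stand near 4 on the vertical axis and near 0 on the horizontal one, and NEFL stands at -3.52 in controls.

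The fixed block added genes from the groups above, most of which did not pass with the random block. All of DLA-DRA, DLA-DQA1, HLA-DRB1 and DLA-DQB1 passed, with changes between 1.79 and 2.34, and 6 of the 9 class II genes did in total. Of the matrix list 7 passed, among them COL1A1 (1.79, adjusted p = 0.015), FN1 (1.44, adjusted p = 0.0303) and FBN1 (1.17, adjusted p = 0.00907), and of the macrophage list 3 passed, CTSS (1.54), CYBB (1.42) and LYZ (1.20). In FN1 the chambers already differed by 1.59 in controls, whereas CTSS differed there by 0.52 without passing. CCL2 had 6.59, 6.51 and 6.66 in RA controls and 6.62, 6.65 and 6.60 in RV controls, and its change of 1.93 passed only with the pairs (adjusted p = 0.00948, against 0.0832 without them).

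**Figure D5:**
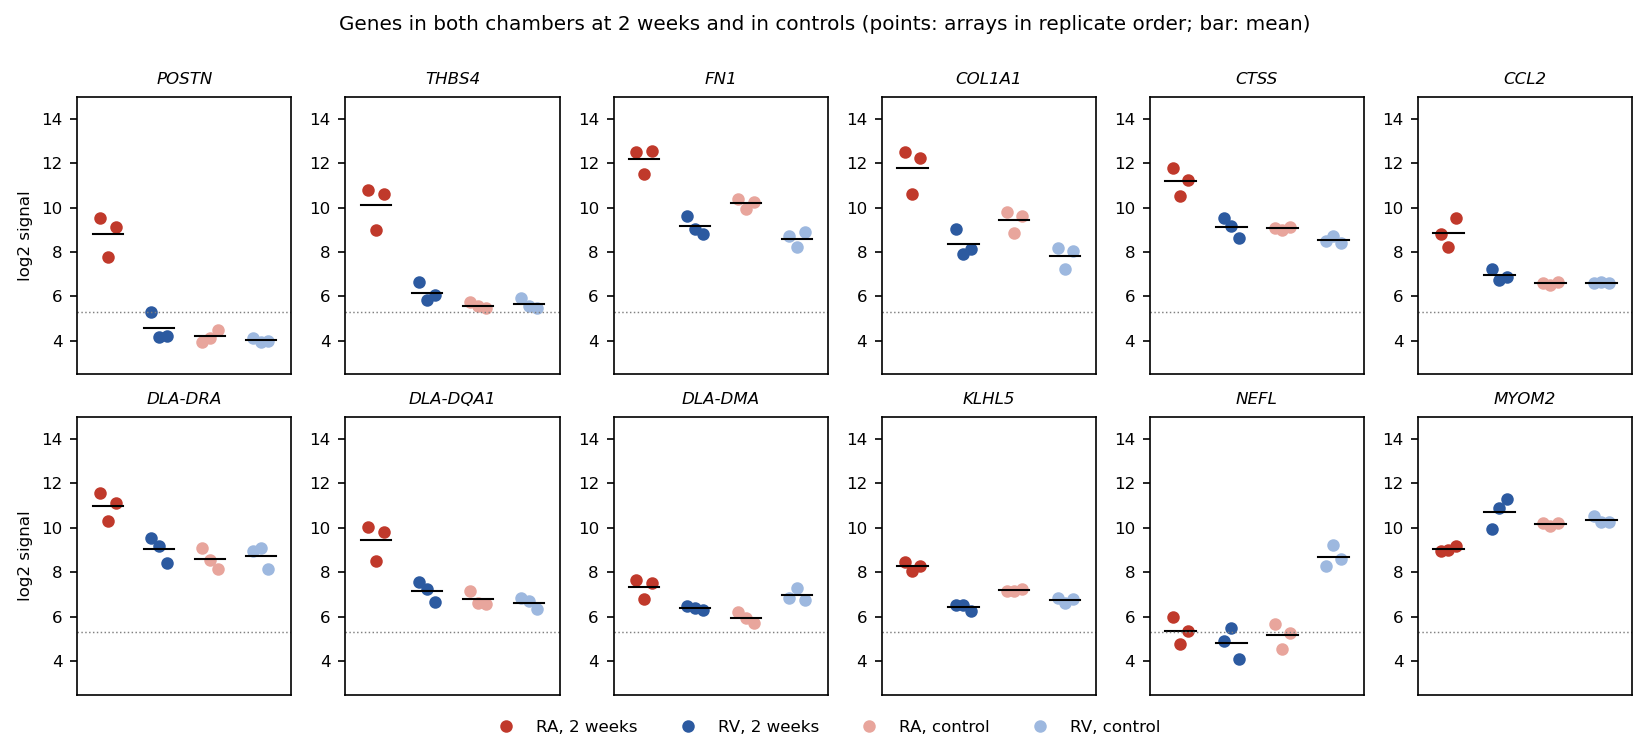
Log2 signal of 12 genes in 4 groups of 3 arrays, from left to right RA at 2 weeks, RV at 2 weeks, RA controls and RV controls, with group means as bars and the limit of the signal filter as a dotted line. In POSTN, THBS4, CTSS, CCL2, DLA-DRA and DLA-DQA1 the RA arrays at 2 weeks stand above the other 3 groups, in NEFL only RV controls are high, and in MYOM2 the RA arrays at 2 weeks are lowest.

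The muscle genes MYL3, MYOM2, NRAP, MYOM1, FKBP1B and ACTA1 passed with the fixed block and not with the random one. MYL3 changed by 2.06 (adjusted p = 0.019), where its signal in RA was 9.24, 10.86 and 9.04 at 2 weeks and 7.59, 7.91 and 7.97 in controls, while RV stayed near 14. MYOM2 (-1.5, adjusted p = 0.0177), NRAP (-1.35, adjusted p = 0.015) and MYOM1 (-1.09, adjusted p = 0.00876) changed the other way. FKBP1B changed by 1.34 (adjusted p = 0.0177), with RV means of 7.04 at 2 weeks and 8.23 in controls and RA means of 8.28 and 8.12. ACTA1 changed by 0.95 (adjusted p = 0.0255). Of the atrial markers PAM changed by -0.69 (adjusted p = 0.0305), to a smaller difference at 2 weeks. STXBP6 (-1.04) also passed with the fixed block only. USP28 (-0.99), ANKHD1 (-1.20) and RAB9B (-1.22) passed with both the fixed and the random block, but not without pairs.

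Adiponectin, ADIPOQ, an adipocyte hormone, had the largest negative change in the paired fit, -3.19 (adjusted p = 0.0268, against 0.534 without pairs and 0.36 with the random block). It had 7.29, 9.65 and 7.67 in RA and 7.07, 10.87 and 7.01 in RV at 2 weeks, with 9.81, 10.58 and 10.51 in RA controls and 8.19, 6.39 and 7.10 in RV controls. Array 2 was the highest of both chambers at 2 weeks. Of the 20 adipocyte markers, 5 were higher in RA controls and 0 lower, and 3 changed with the pairs, ADIPOQ, CIDEC (-1.12) and DGAT2 (-1.66).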

How the data were processed

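RNA of canine RA and RV tissue was measured on Affymetrix Canine_2 arrays, 3 for each of 6 groups. The values the authors deposited are on a log2 scale, as read from the values; the submitters' processing notes name MAS5, and its version and any normalization are not given in the sources used here. Array medians lay between 5.65 and 5.75. Of 42924 probe sets that are not controls, the 40% with the lowest mean were left out, leaving 25752, with a limit of 5.31. Before this filter, 29254 had 1 gene symbol, 439 several and 13231 none. The main fit was limma 3.58.1 in R 4.3.3 with 4 group means over 12 arrays (8 residual degrees of freedom), trended eBayes, two-sided tests and Benjamini-Hochberg adjustment over the 25752 probe sets. All 5-week arrays were left out because RA array 3 of that stage carried RV markers, known from an earlier analysis of these data. That reason covers 1 array only. With just that array left out (17 arrays), 1 probe set was called for the change from controls, against 10 in the main fit. An exact permutation test of 3 against 3 arrays cannot go below 0.1 and was not used.

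The members and gene lists were chosen with earlier results of these data known. Named genes were those set by a rule in the design (a fixed set of chamber, channel and calcium genes, up to 15 of the largest difference in each direction, up to 4 of the smallest p from each list, and up to 8 in each direction of the change from controls). The other genes named, among them list members that did not pass, NR2F2, XIRP2, TRDN, TCAP, ACTC1, MLYCD, ETFB, COL1A2, COL4A1, COL4A2, LUM, LYZ, TYROBP, CD163, MRC1, CD74, C1S, C1R, SERPING1, ADIPOQ, CIDEC, DGAT2, CLIC2, LRRC39 and PGM2, were chosen after their values were seen. A summed level is log2 of the summed linear signal of a list. RA and RV arrays of the same number deviated together (r = 0.17, 0.26 and 0.15 at 2 weeks, 0.36, 0.24 and 0.42 in controls, every other pair at most 0.05). The numbers were therefore taken to pair the chambers, though no label says that a number stands for 1 animal. The main fit does not use the pairs. A fit with the number as a fixed block was run beside it and called 3221 probe sets at 2 weeks, against 2384. Other alternatives were all 18 arrays, 17 arrays, the 6 arrays alone, other filters, quantile normalization, array weights, no variance trend, no x and s probe sets, and each array left out. In simulated data for the 2-week comparison (25752 features, 200 changed), recovery was 62.7% for 1.5-fold changes, 97% for 2-fold ones and 100% for 4-fold ones, with 13 false among 186 calls. The simulated noise was normal and independent between arrays and features, unlike the arrays here, which deviated together by number. These rates therefore need not hold for the data.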

Additional observations from a re-analysis of the deposited data

Results flagged for a closer look

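The chamber difference (RA minus RV, log2) differed between 2 weeks of pacing and controls for 5 genes, by a test of the difference itself in the limma fit of 12 arrays. POSTN changed by 4.08, THBS4 by 4.03 and KLHL5 by 1.40 (adjusted p = 0.0207 each), NEFL by 4.06 (adjusted p = 0.0224) and DLA-DMA by 1.94 (adjusted p = 0.0416). With all 18 arrays in the fit the adjusted p was 0.702 for POSTN, 0.628 for THBS4, 0.52 for KLHL5, 0.226 for NEFL and 0.411 for DLA-DMA. With 17 arrays, all but RA array 3 at 5 weeks, it was 0.279, 0.137, 0.0892, 0.137 and 0.0892 in the same order. In POSTN and THBS4 the 3 RA arrays at 2 weeks were high and the other 9 arrays low, while in NEFL the 3 RV control arrays were high. For POSTN those 9 arrays lay under the limit of the signal filter, near background.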

How the results depend on the processing

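The 2-week chamber comparison called 2384 probe sets. It called 1454 with all 18 arrays and 2316 with 17, all but RA array 3 at 5 weeks. It called 1478 with its 6 arrays alone and 1516 without probe sets that can match several transcripts, of which fewer were tested (16648). Leaving out single arrays gave 1497 to 2312, lowest without RV early replicate 3. The share of these calls higher in RA was 58.2%, 48.7% with array weights, 53.2% with 18 arrays and 62.6% with the 6 arrays alone, and with single arrays left out it ran from 46.7% (without RA early replicate 1) to 68.1% (without RA early replicate 2). The control comparison called 1481 probe sets, 748 with all 18 arrays and 2593 with array weights, and 749 to 1977 with single arrays left out. The change in the chamber difference was called for 10 probe sets, 1 with 18 arrays, 1 with 17 arrays, 2 with the lowest 60% left out and 33 with array weights. With the replicate number as a block the count was 251 (fixed) or 29 (random). It ranged from 0 to 112 with single arrays left out. It was 0 by limma without RA control replicate 2, RV control replicate 1, RV control replicate 3 or RV early replicate 3, where 1788, 1772, 1745 and 1579 probe sets had an unadjusted p under 0.05, and 112 without RA early replicate 2. Of 123 named genes called at 2 weeks, 84 were called under each alternative that tested them (112 were tested with the lowest 60% left out and 83 without x and s probe sets), and the block ended the call of none. Genes that did not pass changed sign in some cases. With single arrays left out, ATP2A2 ranged from -0.08 to 0.15, CACNA1C from -0.18 to 0.03, CACNA1G from -0.24 to 0.08 and GJA1 from -0.02 to 0.04. The sign turned in these cases: ATP2A2 was -0.08 without RV early replicate 1, CACNA1C 0.01 with array weights and 0.03 without RA early replicate 1, CACNA1G 0.08 without RV early replicate 2, and GJA1 -0.01 without RA early replicate 3, -0.02 without RV early replicate 2 and -0.22 as the mean over its probe sets. The cause of these shifts was not tested. With 3 arrays a group, the number of arrays limits the precision.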

Other observations

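The probe set that stood for GNA12 and the gene NPPB were high and low in the same arrays. In RA controls GNA12 had 3.69, 7.12 and 8.49 and NPPB had 8.59, 11.21 and 12.38, and in RV at 2 weeks GNA12 had 6.70, 3.17 and 3.85 and NPPB 11.04, 6.34 and 8.34. These values were noticed after the data had been seen and were not tested. RA late array 3, left out of the main comparison, had 14.17 for MYL2 and 13.89 for MYL3, where the other RA late arrays had 10.99 and 10.59 for MYL2 and 9.22 and 8.81 for MYL3.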
